A study of Capsicum annuum with 5 samples.

Results

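The miR166 family of pepper (Capsicum annuum, inbred line Zunla 1) was followed in 5 small RNA libraries, with 1 library each for developing root, developing stem, mature leaf, fully open flower and fruit. Its members were taken from the deposited miRNA annotation as every hairpin named can-miR166 plus a letter (can-miR166a and so on, written miR166a below), and every mature sequence listed under such a hairpin. This gave 9 of the 165 hairpins, miR166a to miR166i, with 18 of the 314 listed mature sequences. As hairpins share sequences, these 18 came to 10 distinct sequences of the 245 in the whole annotation. All 9 hairpins carry the same 7-base seed on their 3′ arm, which stood in 0 sequences of other families. As the members were taken by name, the shared seed does not test what the family regulates. No HD-ZIP transcript was measured in these libraries.

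Plants for root, stem and leaf were grown at 22 °C with 16 h of light, and no growth conditions were recorded for flower and fruit. The submitters' sources disagree on the fruit, which is a mature green fruit in one and a fruit turning red at 30 days after pollination in another, so it is called fruit here. The extraction text names root for all tissues, and each library's tissue was taken from its own label. All 5 tissues came from this 1 line, with no treatment and no altered gene, and the files hold miRNAs only, so no tissue marker was checked. As each tissue has only 1 library, differences between tissues could not be set against replicates, so p-values are left out and all intervals cover counting error only. In whole tissues, fewer cells that make a miRNA and fewer copies per cell cannot be told apart.

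In plants miR166 guides the cleavage of mRNAs of class III HD-ZIP transcription factors, known in Arabidopsis as REVOLUTA, PHABULOSA, PHAVOLUTA and their relatives. These factors set the upper side of leaves, maintain the shoot meristem and pattern the xylem, and miR166 restricts them to their domains. A hairpin is cut into a duplex of a guide strand, here from the 3′ arm, and a passenger strand from the 5′ arm, which is usually degraded. In Arabidopsis AGO1 carries the guide to its targets, whereas AGO10 holds miR166 away from them.

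Only 2 distinct guides were listed among the 9 hairpins, and they are shown first because every hairpin's 3′ count refers to one or the other. Both are 21 nt long and are written 5′ to 3′ as DNA letters from the deposited annotation, with the seed (bases 2 to 8) in capitals. The first stood on 7 hairpins (a to g) and the second on 2 (h and i). The second differs from the first by the single substitution C20T, counted from 1 at the 5′ end and outside the seed.
miR166a to g, 3′ arm: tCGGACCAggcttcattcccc
miR166h and i, 3′ arm: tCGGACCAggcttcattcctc

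The 5′ arm distinguishes the hairpins where the guide does not, and its 9 listed sequences took 8 distinct forms, all 21 nt long. Only miR166a and miR166c shared one. They are shown because the listed 5′ sequences, unlike the guides, differ between hairpins, a and c excepted. The d and h forms depart from that of a and c only at the last 2 bases, so shorter tags would match several forms, and the sources used here do not say whether such tags were counted. Capitals mark the bases that differ from the form of a and c.
miR166a and c, 5′ arm: ggaatgttgtctggctcgagg
miR166b, 5′ arm: ggaatgttgtTtggctcgagg
miR166d, 5′ arm: ggaatgttgtctggctcgaAg
miR166e, 5′ arm: AgaatgttgtctggTtcgCAA
miR166f, 5′ arm: TgaatgttgtctgATtcgaAA
miR166g, 5′ arm: AgaatgttgtctggTtcgTgA
miR166h, 5′ arm: ggaatgttgtctggctcgaCA
miR166i, 5′ arm: ggaatgGAgActgATCcAagA

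The b form differed from that of a and c by C11T and the d form by G20A. The h form carried G20C and G21A. The e and f forms had 5 substitutions each and the g form had 4, and all 3 of these changed the first base. The i form stood farthest off, with 8 substitutions and 13 of 21 bases identical. Without i, the other 7 forms were identical at 14 positions, among them the run from base 2 to base 10.

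The hairpins lay on 5 numbered chromosomes and on the sequence named Chr00, 5 of the 9 on the plus strand. The sources used here name no genome build, and the genes around the hairpins were not analysed here. Positions are those of the file, with the strand after them. Chromosome 8 carried miR166a (chr8:125127058-125127204, minus) and miR166h (chr8:138366844-138367000, minus). Chromosome 3 carried miR166d (chr3:39198434-39198574, minus) and miR166e (chr3:257292468-257292589, plus). Single hairpins stood on chromosome 1 with miR166c (chr1:790880-791001, minus), on chromosome 4 with miR166g (chr4:215116430-215116521, plus) and on chromosome 6 with miR166f (chr6:118101072-118101172, plus). On Chr00 lay miR166b (319907905 to 319908023, plus) and miR166i (668149414 to 668149624, plus).

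The precursors were between 92 nt (miR166g) and 211 nt long (miR166i), with a median of 122 nt. Between the arms lay 38 to 163 bases, again with miR166g and miR166i at the ends. In the deposited secondary structures 15 to 17 of the 21 guide bases were paired. A folding prediction gave energies of -29.4 kcal/mol for miR166i and -75.4 kcal/mol for miR166h, the extremes of the family. Per nucleotide miR166i had -0.139 kcal/mol, which was weaker than all 156 hairpins of other families (the weakest of them at -0.217) and than the other 8 miR166 hairpins (-0.505 to -0.340). These are predictions from sequence and not measurements. The precursors below are printed with both mature sequences in capitals, miR166a as the one with most 5′ tags together with c, miR166h as the carrier of the second guide, and miR166i as the one that departs from the others.
miR166a: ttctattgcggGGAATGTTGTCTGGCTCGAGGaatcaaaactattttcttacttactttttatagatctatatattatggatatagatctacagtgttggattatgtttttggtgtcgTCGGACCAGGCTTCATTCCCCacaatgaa
miR166h: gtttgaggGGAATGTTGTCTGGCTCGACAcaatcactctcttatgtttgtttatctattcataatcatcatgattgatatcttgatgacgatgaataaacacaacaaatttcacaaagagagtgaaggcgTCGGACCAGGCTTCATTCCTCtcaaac
miR166i: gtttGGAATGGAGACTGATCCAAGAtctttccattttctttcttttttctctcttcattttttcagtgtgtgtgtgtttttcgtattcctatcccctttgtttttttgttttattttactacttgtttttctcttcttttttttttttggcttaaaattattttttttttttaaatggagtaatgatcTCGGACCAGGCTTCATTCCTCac

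Each distinct sequence was counted once below, at the highest count listed for it on any hairpin. On this basis the family had 83923 tags in root, 142479 in stem, 276078 in flower, 194165 in fruit and 174613 in leaf, out of 231560, 318815, 678695, 311417 and 542531 listed tags of all families. It ranked first in every library. Its lead over the next family was narrow in flower, at 1.20 times miR156 (which targets SPL transcription factors), and in root, at 1.31 times miR168 (which targets AGO1). It was wide in fruit, at 4.58 times miR168.

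As tags per 1000000 listed tags (normalised tags), the level was 623489 in fruit, 446902 in stem, 406778 in flower, 362424 in root and 321849 in leaf. Fruit was 1.94-fold above leaf (95% interval 1.92 to 1.95). All neighbours in this order differed by more than counting error, but the order itself depended on the scaling. With median-of-ratios size factors over families found in every library, flower was highest (891049) and leaf lowest (260311). With totals that leave miR166 out, fruit (1655963 tags per 1000000 others) and leaf (474598) kept the ends. When shared sequences were summed over their hairpins, stem (779234) and fruit (779221) lay level at the top and root (562698) was lowest. Leaf was thus lowest in 3 of the 4 settings, and no tissue was highest in all of them.

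**Figure D1:**
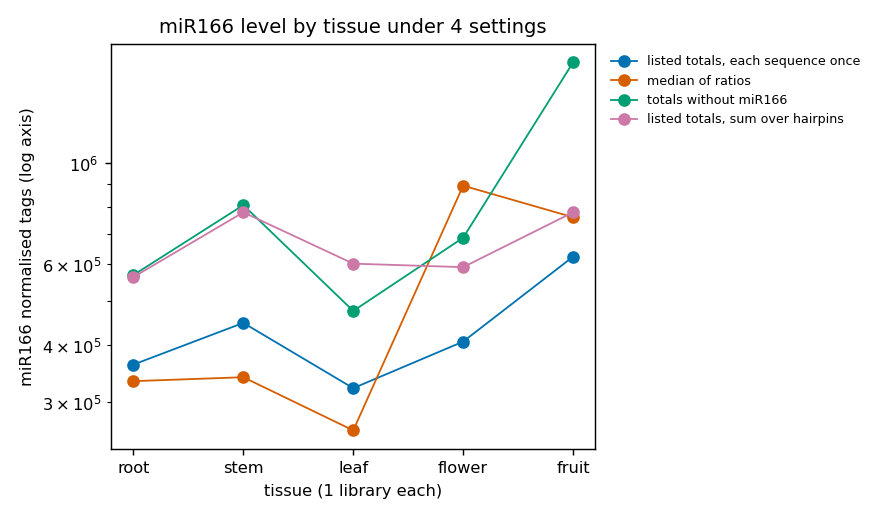
miR166 level (normalised tags, log axis) in the 5 tissues, with 1 library each; each line joins the values of 1 setting. Fruit is highest with listed totals (623489) and with totals without miR166, flower with median-of-ratios scaling (891049), and stem and fruit lie level when tags are summed over hairpins.

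The balance between the 2 guides is a share within each library and so needs no scaling. The guide of h and i had 47075 tags in root, 28054 in stem, 86498 in flower, 84237 in fruit and 61636 in leaf. The guide of a to g had 36269, 111709, 185804, 107159 and 94959 tags in the same order. With each guide counted once, root was the only library in which the h and i guide had more tags than the other. The way of counting turns this direction: summed over their 7 and 2 hairpins, the a to g guide made up 71.8% of the 3′ tags in root.

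The h and i guide made up 56.5% of the 3′ tags in root (95% Clopper-Pearson interval 56.1 to 56.8) and 20.1% in stem (19.9 to 20.3). Between these lay fruit with 44.0% (43.8 to 44.2), leaf with 39.4% (39.1 to 39.6) and flower with 31.8% (31.6 to 31.9). None of the 5 intervals overlapped. The a to g guide was thus 3.98 times as frequent as the other in stem but 0.770 times in root. In normalised tags the h and i guide was lowest in stem under all 4 scalings, and highest in fruit under 3 of them and in root when totals were summed over hairpins. The a to g guide had no tissue that was highest under all scalings. Tags that end before base 20 would match both guides, and the sources used here do not say whether such tags were counted.

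**Figure D2:**
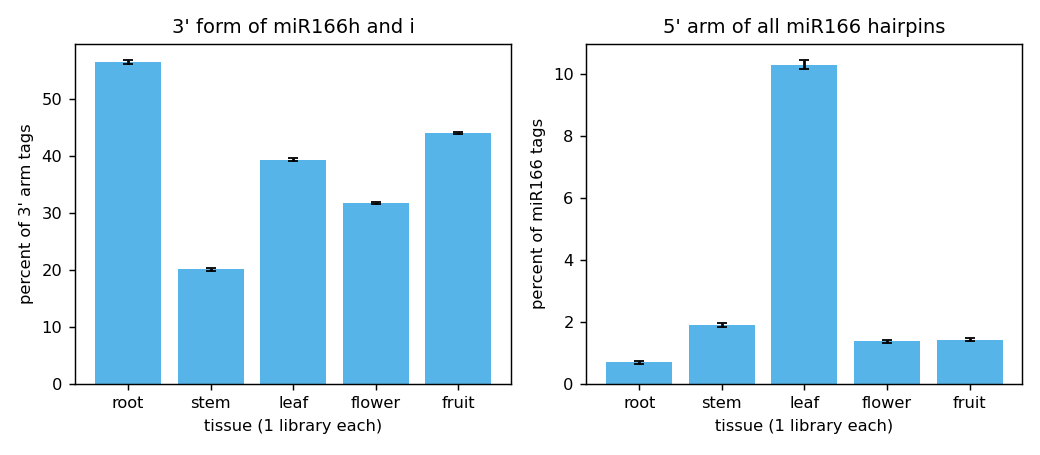
Left, percent of 3′ arm tags that belong to the guide of miR166h and i; right, percent of all miR166 tags that come from the 5′ arm; bars are single libraries and error bars 95% Clopper-Pearson intervals. The left share runs from 20.1% in stem to 56.5% in root, and the right one stands at 10.3% in leaf against at most 1.91% in the other tissues.

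The 5′ arm, the passenger side, took its largest share in leaf. Summed over the 8 forms it had 579 tags in root, 2716 in stem, 3776 in flower, 2769 in fruit and 18018 in leaf. These were 10.3% of the miR166 tags in leaf (10.2 to 10.5) and 1.91% in stem (1.84 to 1.98), 1.43% in fruit (1.37 to 1.48), 1.37% in flower (1.32 to 1.41) and 0.690% in root (0.635 to 0.748, Clopper-Pearson intervals). The leaf share was 5.41 times that of stem, the next tissue, and 15.0 times that of root, while flower and fruit had overlapping intervals. In normalised tags the 5′ arm was highest in leaf under all 4 scalings, by 2.07 to 5.41 times over the next tissue. The 3′ arm was lowest in leaf under 3 scalings, though in flower when totals were summed over hairpins.

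A raised leaf share of the rarer arm was also found in other families. Among the 19 families with at least 100 tags in every library and tags from both arms, that share was highest in leaf in 9, or 47.4%, with miR166 counted among them. A leaf share at least 4-fold above the next tissue was found in 4 of the 19, or 21.1%, namely miR166, miR164 (which targets NAC factors), miR397 (laccases) and miR482 (disease resistance genes). For miR164 the rarer arm took 0.756% in leaf, 0.0184% in stem and 0 in root, flower and fruit, so its fold was taken over a share near 0. For miR397 this arm was listed at 0 in the other tissues, so no fold is given. In miR482 the arm that was rarer over all libraries together took 88.6% in leaf and at most 19.2% elsewhere. Other families ran the opposite way, among them miR398 (copper/zinc superoxide dismutase), with 2.32% in leaf and 32.5% in flower, and miR5301, with 0.255% in leaf and 11.4% in root. The leaf share of the rarer arm thus stood out in several families of this 1 library, and library and tissue cannot be told apart here.

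By hairpin, the 5′ tags were very uneven. The form of a and c held 77.1% of them over the 5 libraries, with 21488 tags, and that of d held 20.4%, with 5686. The h form had 329 tags, the e form 323 and the b form 24. The g form had 6 tags and the i form 2, and the f form was listed at 0 in every library.

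The form of miR166a and c had 268 tags in root, 1776 in stem, 3053 in flower, 2427 in fruit and 13964 in leaf. Leaf was highest under all 4 scalings, 1.83 to 5.05 times above the next tissue, and root was lowest. The counts listed at a and at c themselves were nearly equal, 13964 and 13876 in leaf and 3021 and 3053 in flower.

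The form of miR166d had 217 tags in root, 904 in stem, 372 in flower, 285 in fruit and 3908 in leaf. It too was highest in leaf under all 4 scalings, 2.07 to 3.52 times above stem, the second tissue each time. Its weight among the 5′ tags differed between tissues. It made up 37.5% of the 5′ tags in root (33.5 to 41.6) and 33.3% in stem (31.5 to 35.1), but 21.7% in leaf (21.1 to 22.3), 10.3% in fruit (9.19 to 11.5) and 9.85% in flower (8.92 to 10.8).

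The form of miR166e went the other way, with 77 tags in root, 18 in stem, 204 in flower, 12 in fruit and 12 in leaf. Leaf, the highest tissue of a, c and d, was its lowest under all 4 scalings, and its highest was root under 3 of them and flower with median-of-ratios scaling. Some of these ranks were close, and no interval was computed for them. Root led flower by 1.11-fold with listed totals and by 1.03-fold with totals without miR166. With totals summed over hairpins it led by 1.64-fold, and leaf (9.21) lay little below fruit (10.5). It supplied 13.3% of the 5′ tags in root (10.6 to 16.3) and 5.40% in flower (4.70 to 6.17), against 0.0666% in leaf (0.0344 to 0.116). For each tag of e there were 3.48 tags of a and c in root, 15.0 in flower, 98.7 in stem, 202 in fruit and 1164 in leaf. These ratios lie within a library and are free of the scaling, though those for stem, leaf and fruit rest on 12 to 18 tags of e.

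The form of miR166h, the one hairpin of the second guide with more than a few 5′ tags, had 8 tags in root, 16 in stem, 145 in flower, 42 in fruit and 118 in leaf. It was lowest in root under all 4 scalings, and its highest tissue was leaf under 2 of them and flower under the other two. It took 3.84% of the 5′ tags in flower (3.25 to 4.50) and 0.589% in stem (0.337 to 0.955). The form of miR166b had 9 tags in root, 13 in leaf and 2 in fruit and was listed at 0 in stem and flower. The 2 tags of miR166i came from leaf.

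**Figure D3:**
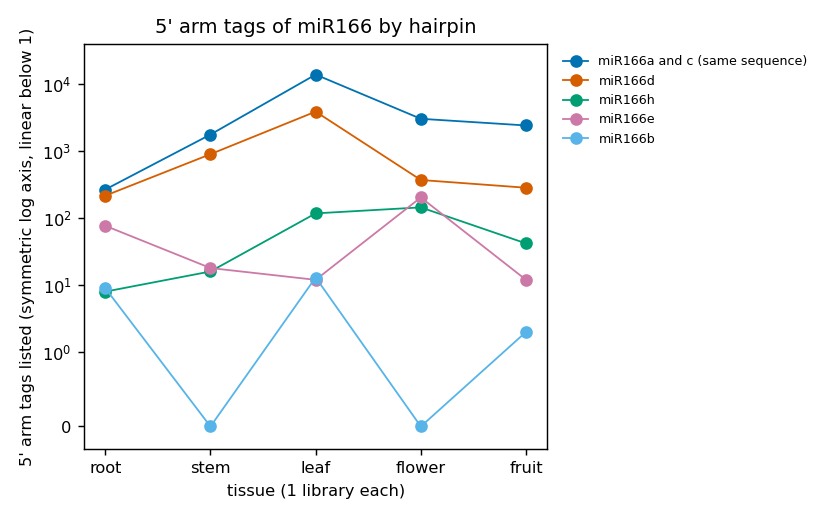
Tags listed for the 5′ arm of 5 miR166 forms (counts, symmetric log axis that is linear below 1) in the 5 tissues, with 1 library each; each line joins the values of 1 form. The forms of a and c (13964 tags) and of d (3908) peak in leaf, where that of e has 12 tags against 204 in flower.

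The 5′ arm was also rarer for h and i pooled than for a to g pooled. The 5′ forms of a to g made up 1.55% of the tags of those hairpins in root (1.43 to 1.68), 2.36% in stem (2.27 to 2.45), 1.92% in flower (1.86 to 1.98), 2.48% in fruit (2.39 to 2.58) and 15.9% in leaf (15.6 to 16.1). For h and i the same share was 0.0170% in root (0.00734 to 0.0335), 0.0570% in stem (0.0326 to 0.0925), 0.167% in flower (0.141 to 0.197), 0.0498% in fruit (0.0359 to 0.0674) and 0.194% in leaf (0.161 to 0.232, Clopper-Pearson intervals). The first share was higher than the second in every library, by 11.5 times in flower and by 41.4 to 91.2 times in the other tissues. For a to g leaf stood apart from the other libraries, whereas for h and i leaf and flower had overlapping intervals. The pooled share of a to g rested mainly on the forms of a and c (21488 tags over the 5 libraries) and of d (5686). The b, e, f and g forms, with 24, 323, 0 and 6 tags, had fewer than the h form (329), and the i form had 2. Whether the contrast goes with the guide was not tested.

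With highest over lowest tissue at least 4-fold on the scale log2(normalised tags + 1) as criterion, 89.9% of the 159 distinct sequences with 10 or more tags passed. Of the 10 miR166 sequences 7 had that many tags, and 5 of the 7 passed, the 5′ forms of a and c, b, d, e and h. The call on b rests on 24 tags and on tissues listed at 0, and b was no longer tested with a minimum of 50 tags. The guides did not pass, with 1.16 log2 units between highest and lowest tissue for a to g and 1.62 for h and i. The call on the guides turned with the scaling: with median-of-ratios size factors both passed, at 4.24-fold (a to g) and 4.92-fold (h and i), and with totals without miR166 the h and i guide passed at 4.52-fold. As most sequences of the annotation passed as well, the count says nothing particular to miR166.

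The same guide was listed with different counts at different hairpins, and the counts fell into steps. In root miR166a, b and c had 29864, 29701 and 29698 tags, miR166d, e and f had 32298, 32403 and 32418, and miR166g had 36269. Within a to c the counts differed by at most 0.559% in any library, and within d to f by at most 0.372%. The d to f counts lay above the a to c counts in every library, by 8.80% in root, 3.30% in stem, 1.93% in leaf, 1.82% in fruit and 0.891% in flower. miR166g lay above d to f by 12.03% in root, 4.57% in flower, 4.48% in leaf and 3.51% in fruit, whereas in stem the difference was -0.788% (110771 against a mean of 111651).

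Apart from stem, where miR166g lay below d to f, these steps ran parallel to the base just before the guide in the precursor. This base was G in a, b and c, T in d, e and f, and C in g. The second guide was likewise preceded by G in h and by C in i, and i had more tags than h in every library, from 7.21% in fruit to 16.4% in root (47075 against 40439). This grouping was chosen after the counts were seen. The sources used here do not say how tags were assigned to hairpins, and the part of the neighbouring bases was not tested.

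**Figure D4:**
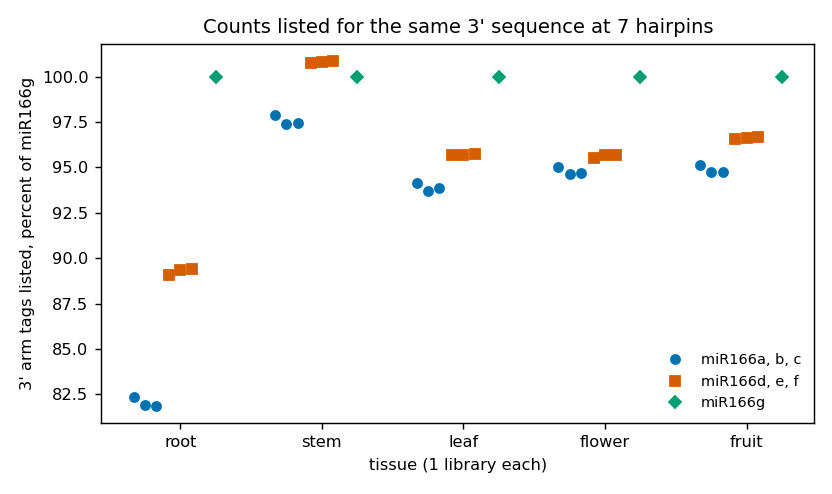
Tags listed for the shared 3′ sequence at miR166a to miR166g, as percent of the count at miR166g, in the 5 tissues; each point is 1 hairpin in 1 library. Points of a to c and of d to f form tight groups, farthest below miR166g in root (81.9 to 89.4%), and in stem d to f lie slightly above it.

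Families were ranked by the distance of their profile over the 5 tissues from that of miR166. The distance was the mean absolute difference of log2(normalised tags + 1), each family centred on its own mean. The nearest of 42 families with at least 100 tags was miR159, which targets MYB factors, at 0.30 log2 units, followed by miR396 at 0.35, the candidate miRC27 at 0.42, miR169 (which targets NF-YA factors) at 0.45 and the candidate miRC16 at 0.49. Like miR166, miR159 was lowest in leaf (1001 normalised tags), but it was highest in stem (2362) and miR166 in fruit. Around its own mean miR166 ran only from -0.39 log2 units in leaf to 0.57 in fruit, so a near family need not share its order of tissues. miR396 was also highest in fruit but lay above its mean in leaf (0.31). miR169 was also lowest in leaf but highest in flower (0.65). miRC27 lay below its mean in fruit (-0.14), and miRC16 was highest in root (0.69) and lowest in flower (-1.13). This ranking holds for listed totals with each sequence taken once.

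Of the 10 families set beside miR166 because in Arabidopsis they act on leaf polarity, meristems, organ boundaries, vasculature or AGO1, 8 passed the 4-fold criterion, against 84.2% of the 57 families tested. miR166, with its 1.94-fold range, did not. miR390, which triggers tasiRNAs against ARF genes in leaf polarity, was highest in stem with 6113 normalised tags and lowest in fruit with 1262, though flower was highest with median-of-ratios scaling. miR164, which limits organ boundary genes, was highest in stem under all 4 scalings, with 34186 against 2608 in root. miR394, which acts on the shoot meristem, was highest in flower with 336 and listed at 0 in root. miR168 and miR396 were the 2 that did not pass. Of the 10, leaf was the highest tissue of 0 with listed totals, whereas root, stem, flower and fruit were that of 3, 2, 3 and 2.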

How the data were processed

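The deposited data were an annotation of 490 lines in GFF format, written by the plant setting of MIREAP per the file headers. Its attribute text holds, per the file headers, other values beside names: the sequence, the structure and, per library, the tag count as a whole number, which the authors deposited with no recorded scaling. The sources used here name no build, aligner or trimming. Repeated precursor lines (11 of 176) were kept once. Mature positions were computed from the precursor. No fault was found in the structures or lengths of the 9 hairpins. Members, lists and the rule for named families were chosen with earlier results of these data known. The rule took all 9 hairpins, all their mature sequences, the 5 families at the smallest distance in profile and 10 families known from Arabidopsis.

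Each distinct sequence was counted once per family, at its highest listed count. The guide listed at 7 hairpins would otherwise enter sums 7 times over. Counts were divided by the listed total, and alternatively by median-of-ratios size factors (31 families), by totals without miR166, or by totals summed over hairpins. Listed totals were between 231560 and 678695 tags and are not library depths. Intervals are 95% Clopper-Pearson, and folds use the exact binomial split of the counts. The pseudocount was 1 and the minimum 10 tags. On simulated data (Poisson counts of 159 sequences, 10 of them raised in 1 tissue) the 4-fold criterion called 100% of those raised 8-fold and 0.4% of those raised 2-fold (50 simulations). The raised sequences were drawn from those of middle abundance only. The simulation thus says nothing on sequences near the minimum of 10 tags or on the most abundant ones, such as the guides. Tools were Python 3.11.15, numpy 2.4.6, scipy 1.17.1, matplotlib 3.10.9 and RNAfold 2.7.2.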

Additional observations from a re-analysis of the deposited data

How the results depend on the processing

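No paired analysis was possible because each tissue has 1 library, and no library could be left out within a tissue. Level of miR166, in the order root, stem, leaf, flower, fruit: summed over hairpins 562698, 779234, 601964, 591454 and 779221 normalised tags; as a mean over hairpins 340460, 441781, 312713, 395578 and 615248; with median-of-ratios scaling 333415, 340079, 260311, 891049 and 760143; with totals without miR166 568442, 807997, 474598, 685709 and 1655963. The highest over the lowest tissue was 1.38-fold summed over hairpins (stem over root), 1.97-fold as a mean over hairpins (fruit over leaf), 3.42-fold with median-of-ratios scaling (flower over leaf) and 3.49-fold with totals without miR166 (fruit over leaf), and a pseudocount of 10 left it at 1.94. The 5′ share, in the same order of tissues, was 0.271%, 0.541%, 4.07%, 0.480% and 0.583% summed over hairpins, since the guide is then counted 7 times or 2 times. As a mean over hairpins it was 0.757% for root, 10.7% for leaf and 1.43% for flower, and within the counting interval in stem and fruit. Leaf had the highest share in each. The a to g guide made up 71.8%, 93.5%, 84.4%, 88.4% and 81.6% of the 3′ tags summed over hairpins. As a mean it made up 42.1% in root, 80.5% in stem and 68.6% in flower, and was within the interval in leaf and fruit. With counts listed at a and h only, a comparison chosen after seeing the data, it made up 42.5%, 81.1%, 61.7%, 69.8% and 56.5%. Stem had the highest and root the lowest share in each. The number of miR166 sequences past 4-fold, 5 of 7 against 89.9% of all sequences, was 7 of 7 with median-of-ratios scaling and 6 of 7 with totals without miR166 (91.2% of all in both), 7 of 10 with no minimum (73.1%), 4 of 6 with a minimum of 50 tags (87.6%) and 5 of 7 with a pseudocount of 10 (73.6%), summed over hairpins (90.2%) and as a mean (89.9%). Other causes of these shifts than the counting and scaling were not tested. Forms with few 5′ tags (b, g and i) allow no statement on tissues.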

Other observations

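The 9 hairpins stood alone in the annotation. The nearest hairpin of any family was 297606 bp from miR166h (miR394b) and 914785 bp from miR166a (miR477a), and for miR166c it was miR319c at 1463666 bp. For the other 6 the nearest was at least 2033675 bp away by the positions in the file, the distance from miR166i to the candidate miRC10. The longest such distance was that of miR166b, 61995699 bp from miR399f on Chr00. The sources used here do not say what Chr00 is or how it was put together, so the distances of miR166b and miR166i need not be distances in the genome.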
